A study of Homo sapiens with 12 samples.

Results

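The 10 genes described here belong to the mTORC1 pathway, which couples amino acids, energy and stress to cell growth. They are the brakes *DDIT4*, *SESN2* and *SESN3*, the tuberous sclerosis genes *TSC1* and *TSC2*, the GTPase *RHEB*, the Rag GTPases *RRAGC* and *RRAGD*, and the targets *EIF4EBP1* and *RPS6KB1*. They were taken by gene name from the 29123 gene names on the array, and the list was drawn up with earlier results of these data known. Shares of risen genes among the 10 are therefore a description only. In all 16 probes carried these names, and 15 of them passed the filter on dim probes, with at least 1 probe for each of the 10 genes. Signals came from HuH-7 cells, an established human hepatocellular carcinoma line with the p53 mutation Y220C, which the cells of every group carried. Cells were treated for 24 h with the solvent DMSO, with 28 µM SLMP53-2 (2 times the IC50, by the series design) or with 42 µM SLMP53-2 (3 times the IC50), a compound described as a reactivator of mutant p53. Each group had 4 biological replicates, and each replicate was measured on 1 one-colour Agilent array. The dose of the highest group is 42 µM in the sample titles and the study's methods, whereas its treatment labels give 48 µM. All cells were of 1 line, so no result here separates an effect through p53 from any other effect of the compound.

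mTORC1 is a kinase complex that is switched on at the lysosome surface. Amino acids act through the Rag GTPases, which bring the complex to the lysosome, and growth factors act through RHEB, which activates the kinase there and is itself held off by the TSC1-TSC2 complex. DDIT4 (also called REDD1) acts on the TSC branch, whereas sestrins act on the amino acid branch through the GATOR complexes. Active mTORC1 phosphorylates EIF4EBP1, a repressor of cap-dependent translation, and RPS6KB1, the S6 kinase. *DDIT4* and *SESN2* are known as genes that p53 and ATF4 can induce. Liver cells use this pathway to match protein and lipid synthesis to feeding. Activity of the pathway lies in phosphorylation and location of proteins, neither of which an mRNA array measures.

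At 42 µM, the mRNAs of 5 of the 10 genes rose against DMSO: *DDIT4*, *SESN2*, *RRAGC*, *RRAGD* and *EIF4EBP1*. The largest rise was 6.28-fold (*DDIT4*) and the smallest 2.40-fold (*EIF4EBP1*). None of the 10 fell, and *SESN3*, *TSC1*, *TSC2*, *RHEB* and *RPS6KB1* did not pass the test. The test was limma over all 12 arrays, and a gene passed when its adjusted p was under 0.05 and its log2 fold change 0.6 or more in either direction. Of the 24151 gene names with a tested probe, 381 passed in the upward direction at 42 µM (1.58%) and 343 in the downward direction (1.42%). The median log2 fold change was 0.81 over the 10 genes and -0.02 over all gene names. At 28 µM none of the 10 genes passed with all arrays in the fit, as was so for every gene on the array (0%), while 5 of the 10 had an unadjusted p below 0.05, against 1350 higher and 1520 lower of all 24151 (whatever the fold change). The calls at 42 µM depend on single arrays: without DMSO replicate 2 or 42 µM replicate 2, neither any of the 10 nor any other gene passed (0 calls), and without DMSO replicate 1, DMSO replicate 4 or 42 µM replicate 1, 2 of the 10 did (*SESN2* and *EIF4EBP1*). Because arrays read bulk RNA, more cells that express a gene and more of its mRNA per cell cannot be told apart.

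For the risen genes, the array of 28 µM replicate 4 stood apart from the other 3 arrays of its group, and the 28 µM values rest on it. Over the 5 genes that rose at 42 µM, its median difference from the DMSO mean was 0.01 on the log2 scale, whereas the other 28 µM arrays stood at 1.44, 1.86 and 1.23. The 42 µM arrays stood at 1.92, 1.59, 1.28 and 1.48. This array lay within the DMSO range for *DDIT4*, *RRAGC* and *RRAGD*, and above it for *SESN2* (by 0.13 from the DMSO mean) and *EIF4EBP1* (by 0.29), nearer to DMSO than the other treated arrays in each case. Values at 28 µM are given with and without it. The array was singled out on the values of these same genes, so their calls without it, here and below, are no separate support. Without this array, all 5 of these genes passed at 28 µM, where 1.45% of gene names passed in the upward direction. The fit at 42 µM then gave the same 5 of 10, beside 2.24% of gene names. Between 65.0% and 85.0% of the gene spots of an array were well above background, and no gene spot was saturated. Over all tested probes, 28 µM replicate 4 correlated more with the DMSO arrays (median r 0.983) than with the 42 µM arrays (0.981). The other 28 µM arrays, in the order of replicates, correlated more with the 42 µM arrays (0.974, 0.986 and 0.989) than with DMSO (0.970, 0.978 and 0.982). Still, 28 µM replicate 1 and not replicate 4 correlated least with its own group (median r 0.971 against 0.977). Replicate 1 also had the lowest weight when arrays were weighted in the fit (0.31, against 0.72 for replicate 4), and it was kept throughout. Among hepatocyte markers, 7 of 8 were well above background on all 12 arrays and the remaining gene, *TTR*, on 11. Of 8 markers of other liver cell types, the leukocyte marker *PTPRC* was well above background on 2 arrays and the bile duct marker *KRT7* on 1. In contrast, *COL1A2*, *VWF*, *CD14* and *KRT19* were so on all 12, and *COL1A1* and *PECAM1* on 11. The part of these signals in the results was not tested.

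The promoters of *DDIT4*, *SESN2* and *RRAGC* are shown because these genes rose together and act at separate steps of the pathway. Each sequence is the 250 bases before the annotated start, 5′ to 3′ on the strand of the gene, from RefSeq on GRCh38.p14. *DDIT4* lies on the plus strand at chr10:72273674-72273923, *SESN2* on the plus strand at chr1:28259268-28259517 and *RRAGC* on the minus strand at chr1:38859773-38860022. Capitals mark a match to the E-box CACGTG, the motif of basic helix-loop-helix factors such as TFEB.
DDIT4: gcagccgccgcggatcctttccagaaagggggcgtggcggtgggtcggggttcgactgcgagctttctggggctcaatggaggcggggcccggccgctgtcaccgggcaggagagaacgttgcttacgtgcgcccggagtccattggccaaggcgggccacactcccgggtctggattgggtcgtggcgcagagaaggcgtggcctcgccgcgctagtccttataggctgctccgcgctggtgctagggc
SESN2: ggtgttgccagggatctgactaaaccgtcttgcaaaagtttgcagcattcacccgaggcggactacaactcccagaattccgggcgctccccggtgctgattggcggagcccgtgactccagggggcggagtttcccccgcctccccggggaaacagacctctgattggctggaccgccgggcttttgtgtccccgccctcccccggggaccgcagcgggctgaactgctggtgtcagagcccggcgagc
RRAGC: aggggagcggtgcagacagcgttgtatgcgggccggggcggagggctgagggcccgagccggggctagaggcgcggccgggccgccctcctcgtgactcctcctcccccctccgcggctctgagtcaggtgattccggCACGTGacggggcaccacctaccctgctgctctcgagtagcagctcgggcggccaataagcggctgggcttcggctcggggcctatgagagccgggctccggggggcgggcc
Windows of 300 bases, from 250 before to 50 after the start, were searched on both strands for the E-box and for TGATGNAA, the core of the CARE element to which ATF4 binds with a partner. Windows were available for 8 of the 10 genes, and for neither *RRAGD* nor *EIF4EBP1*, which are among the risen genes. The E-box was present in 2 of the 8, and in 7.26% of all 35116 windows. For both motifs a gene counted when any of its windows matched, and *TSC2* had 2 windows. The shares of genes and of windows are thus of unlike units. In *RRAGC* the first base of the E-box lay 112 bases before the start. In the first of the windows of *TSC2*, an E-box (chr16:2047871-2047876) overlapped the CARE core found there (chr16:2047875-2047882). The CARE core was present in 1 of the 8 genes and in 3.62% of all windows. Neither motif was found in these windows of *DDIT4* and *SESN2*, or of *SESN3*, *TSC1*, *RHEB* and *RPS6KB1*. A match is only a match of letters.

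**Figure D1:**
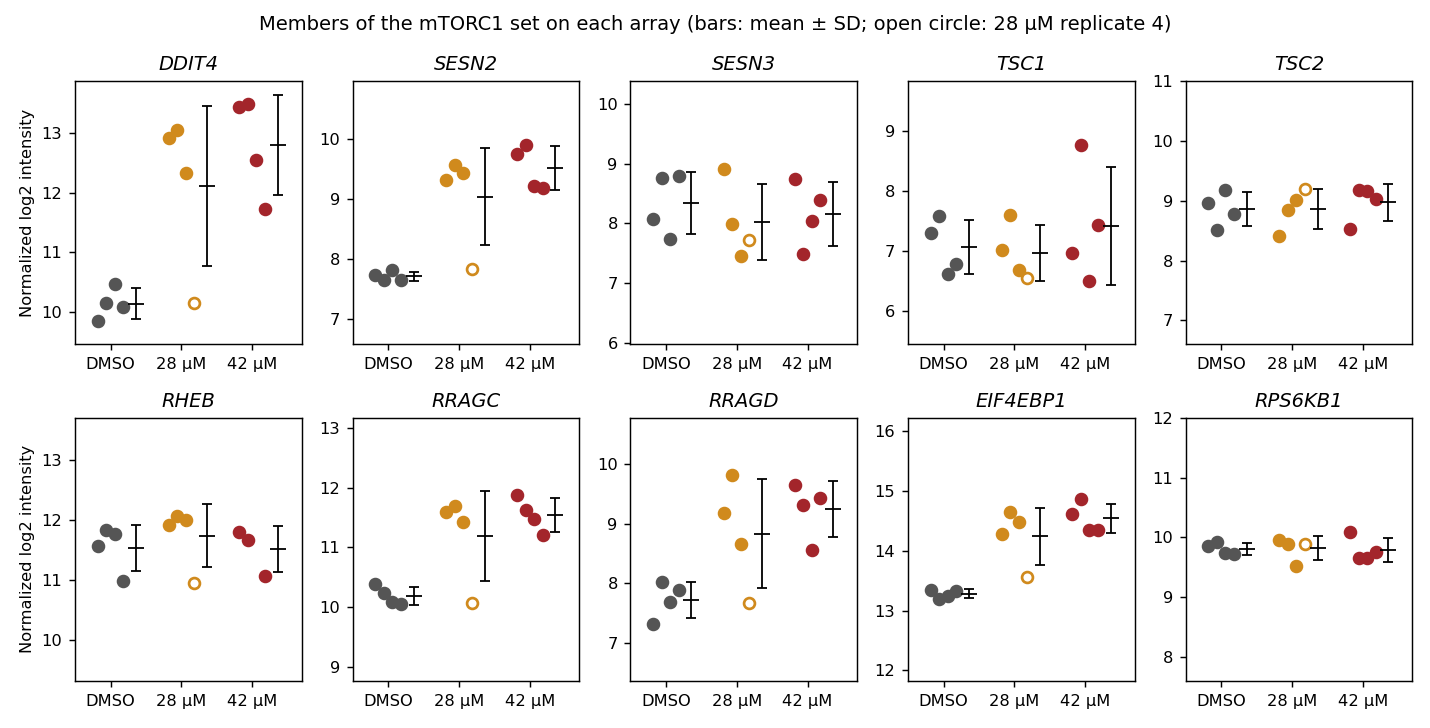
Normalized log2 intensity (y axis, each panel spanning the same range) of the brightest probe of each of the 10 genes on the DMSO, 28 µM and 42 µM arrays (x axis). Each point is 1 array, bars give mean ± SD, and the open circle is 28 µM replicate 4. *DDIT4*, *SESN2*, *RRAGC*, *RRAGD* and *EIF4EBP1* lie higher on all 4 arrays at 42 µM than on any DMSO array.

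The stress-induced brakes *DDIT4* and *SESN2* had the largest changes among the 10 genes. *DDIT4* was measured by 1 probe (hg19 chr10:74035363-74035422). Its normalized log2 intensity was 9.85, 10.16, 10.48 and 10.09 on the DMSO arrays, 12.92, 13.04, 12.33 and 10.16 at 28 µM, and 13.43, 13.48, 12.55 and 11.73 at 42 µM, in the order of replicates 1 to 4. Every 42 µM array lay above every DMSO array, and among the 28 µM arrays only replicate 4 lay within the DMSO range. The mean of 4 arrays was 10.14 (SD 0.26) in DMSO, 12.11 (SD 1.34) for 28 µM and 12.80 (SD 0.83) for 42 µM. At 42 µM the log2 fold change was 2.65 (SE 0.54, limma adjusted p = 0.0224), which was rank 7 from the top among 24151 genes. At 28 µM it was 1.97 (SE 0.54, limma adjusted p = 0.216), and 2.62 (limma adjusted p = 0.00357) without replicate 4.

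*SESN2*, a leucine-sensing sestrin that is induced by stress, moved in the same direction with a smaller spread. Its probe (hg19 chr1:28608194-28608253) gave 7.73, 7.65, 7.81 and 7.64 in DMSO, 9.32, 9.57, 9.43 and 7.83 at 28 µM, and 9.76, 9.91, 9.22 and 9.19 at 42 µM. The DMSO arrays lay within a narrow range, all treated arrays lay above it, and 28 µM replicate 4 was the nearest to it. The log2 fold change was 1.81 at 42 µM (SE 0.31, limma adjusted p = 0.0149), that is 3.51-fold. At 28 µM it was 1.33 (SE 0.31, limma adjusted p = 0.183), and 1.73 (limma adjusted p = 0.000514) without replicate 4.

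*SESN3*, the sestrin best known as a target of FOXO factors, did not pass at either dose on any of its 3 probes. The brightest probe gave 8.08, 8.76, 7.74 and 8.79 in DMSO, 8.91, 7.99, 7.45 and 7.73 at 28 µM, and 8.74, 7.48, 8.04 and 8.39 at 42 µM. The groups overlapped fully, and arrays of 1 group differed by more than the group means did. The log2 fold change at 42 µM was -0.18 (95% confidence interval -0.91 to 0.55). The other *SESN3* probes gave -0.17 (-0.50 to 0.16) and -0.20 (-0.48 to 0.09) at 42 µM. These intervals lie below the whole interval of *SESN2* at 42 µM (1.14 to 2.48), but the difference between the genes was not tested.

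The TSC complex, which turns RHEB off, showed no change that passed the test. *TSC1* gave 7.30, 7.59, 6.62 and 6.78 in DMSO, 7.01, 7.60, 6.69 and 6.54 at 28 µM, and 6.96, 8.78, 6.50 and 7.43 at 42 µM. Its 42 µM mean was raised by replicate 2, the highest of all 12 arrays, and its log2 fold change was 0.35 (95% interval -0.53 to 1.22, limma adjusted p = 0.787). *TSC2* (hg19 chr16:2136775-2136834) ranged from 8.51 to 9.18 in DMSO, from 8.41 to 9.19 at 28 µM and from 8.53 to 9.18 at 42 µM. The 3 ranges covered nearly the same span, and the log2 fold change at 42 µM was 0.12 (95% interval -0.31 to 0.55, limma adjusted p = 0.868). A change as large as that of *EIF4EBP1* (1.27), the smallest among the risen genes, lies outside both intervals. The interval of *TSC1* is wide, however, and its upper end of 1.22 comes close to that value.

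*RHEB*, the direct activator of mTORC1, also did not pass. Its probe (hg19 chr7:151164232-151164291) gave 11.57, 11.83, 11.76 and 10.98 in DMSO, 11.91, 12.07, 12.01 and 10.95 at 28 µM, and 11.79, 11.66 and 11.07 on replicates 1, 2 and 4 at 42 µM. The spot of 42 µM replicate 3 carried an outlier flag and was left out, so that the fit used 3 arrays there. One low array in each group, replicate 4, set much of the spread. The log2 fold change was 0.20 at 28 µM (limma adjusted p = 0.809) and -0.03 at 42 µM (limma adjusted p = 0.981). Without 28 µM replicate 4 the 28 µM value was 0.46 (95% interval -0.02 to 0.94), and the 3 remaining arrays lay above all DMSO arrays. This fit kept DMSO replicate 4, the low array of its group, so the value is not a like comparison.

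Both measured genes of the RagC and RagD kind, which pair with RagA or RagB in the Rag heterodimer, rose at 42 µM. *RRAGC* was read by 2 probes that do not overlap, at hg19 chr1:39305015-39305074 and chr1:39305312-39305371. The first gave 10.38, 10.24, 10.08 and 10.06 in DMSO, 11.59, 11.69, 11.42 and 10.07 at 28 µM, and 11.88, 11.63, 11.47 and 11.21 at 42 µM. The second gave 9.95, 9.91, 9.93 and 9.68 in DMSO, 11.35, 11.52, 10.95 and 9.90 at 28 µM, and 11.63, 11.60, 10.87 and 10.72 at 42 µM. On both probes, all 42 µM arrays lay above all DMSO arrays, and 28 µM replicate 4 lay in the DMSO range. The log2 fold changes at 42 µM were 1.36 (SE 0.29, limma adjusted p = 0.0259) and 1.34 (SE 0.31, limma adjusted p = 0.0343), so the probes differed by less than the error of either. At 28 µM the probes read 2.00 and 2.09 times DMSO with all arrays (limma adjusted p = 0.231 for both), and 1.38 and 1.41 on the log2 scale without replicate 4 (limma adjusted p = 0.00126 and 0.00754).

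*RRAGD* was read by 1 probe, which spans an intron (hg19 chr6:90082293-90087437, on the minus strand). It gave 7.32, 8.01, 7.69 and 7.89 in DMSO, 9.17, 9.82, 8.66 and 7.66 at 28 µM, and 9.65, 9.31, 8.56 and 9.43 at 42 µM. The 42 µM arrays again lay above all DMSO arrays, with replicate 3 the nearest to them. The log2 fold change at 42 µM was 1.51 (SE 0.37, limma adjusted p = 0.0436), or 2.85-fold, and it was the call nearest to the threshold among the 5. At 28 µM it was 1.10 (limma adjusted p = 0.292), and 1.49 (limma adjusted p = 0.0201) without replicate 4. The second *RRAGC* probe and the *RRAGD* probe are shown because they read the rise of a closely related pair of genes at separate sequences, each 60 bases long and printed in lower case with no part marked.
RRAGC: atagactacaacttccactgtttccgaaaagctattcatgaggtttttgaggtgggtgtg
RRAGD: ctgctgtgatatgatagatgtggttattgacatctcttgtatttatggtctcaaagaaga
Each of these probes has 1 open reading frame on the printed strand.

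**Figure D2:**
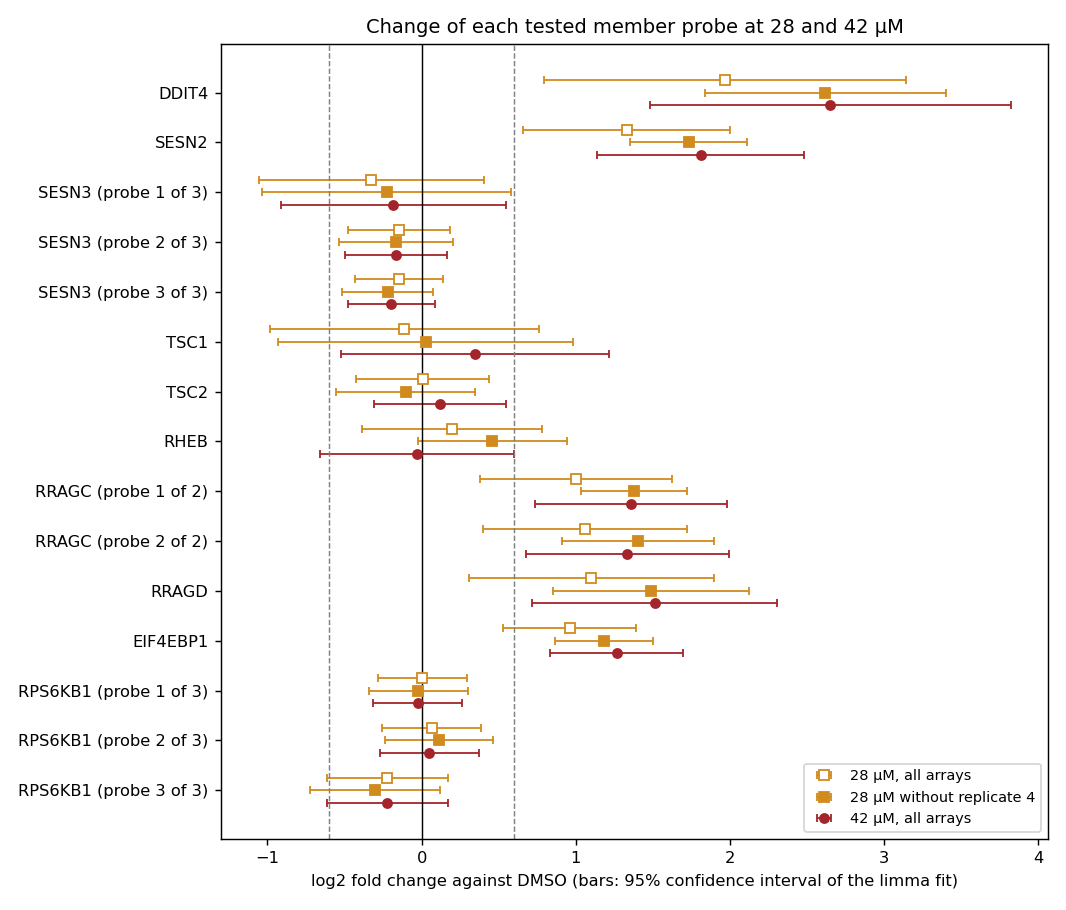
Log2 fold change against DMSO (x axis) of each of the 15 tested probes (y axis), with 95% confidence intervals of the limma fit as bars. Open squares give 28 µM with all arrays, filled squares 28 µM without replicate 4, and circles 42 µM with all arrays. Dashed lines mark the limit of 0.6, and without replicate 4 the 28 µM value lies 0.03 below that at 42 µM for *DDIT4* and 0.08 below it for *SESN2*.

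Among the targets, the translation repressor *EIF4EBP1* rose and the S6 kinase *RPS6KB1* did not pass. *EIF4EBP1* gave 13.35, 13.19, 13.25 and 13.33 in DMSO, 14.27, 14.64, 14.47 and 13.57 at 28 µM, and 14.61, 14.86, 14.35 and 14.35 at 42 µM. All treated arrays, 28 µM replicate 4 included, lay above the DMSO range. The log2 fold change at 42 µM was 1.27 (SE 0.20, limma adjusted p = 0.0114), which was the smallest fold change of the 5 but had the smallest adjusted p. At 28 µM it was 0.96 (limma adjusted p = 0.171), and 1.18 (limma adjusted p = 0.00177) without replicate 4.

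*RPS6KB1* was represented by 4 probes, of which 1 was well above background on none of the 12 arrays and was not tested. The brightest probe ranged from 9.71 to 9.92 in DMSO, from 9.52 to 9.96 at 28 µM and from 9.65 to 10.08 at 42 µM. Its log2 fold change at 42 µM was -0.03 (95% interval -0.31 to 0.26), which leaves out a change of the size seen for *EIF4EBP1*. The other tested probes gave 0.05 and -0.22 (95% interval -0.62 to 0.17) at 42 µM. The former shares 47 bases with the brightest probe and is not a separate reading from it, whereas the latter does not overlap it.

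**Figure D3:**
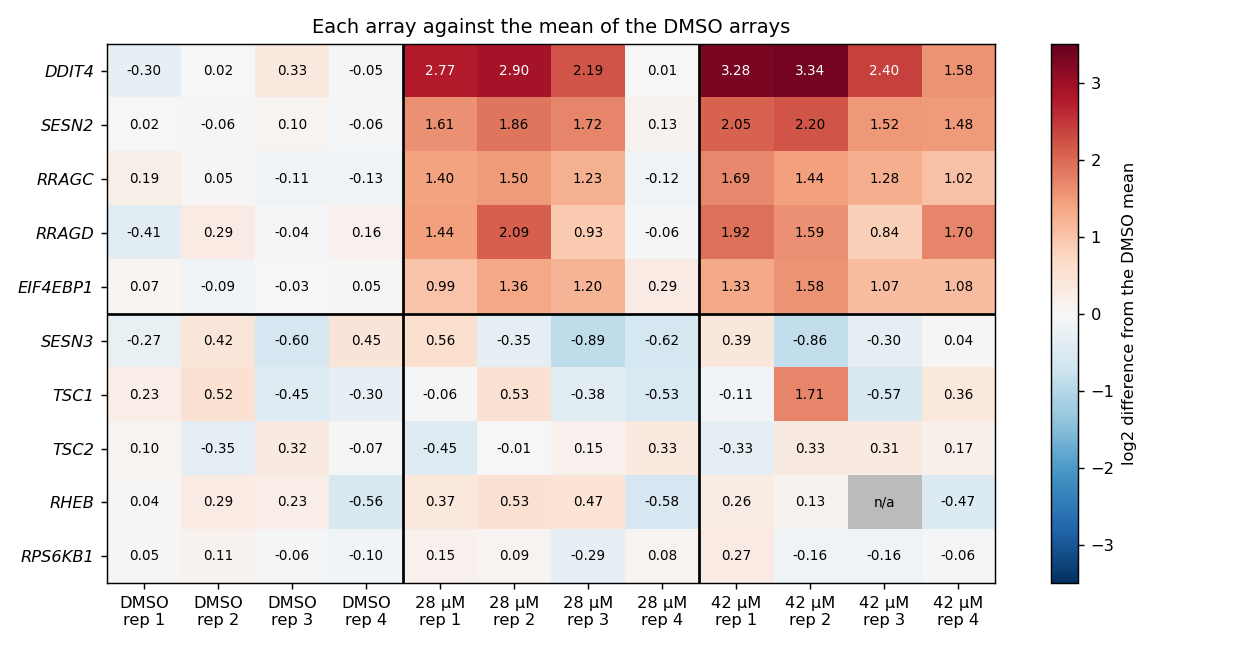
Log2 difference of each array (x axis, 12 arrays by group and replicate) from the mean of the DMSO arrays, for the brightest probe of each gene (y axis), as colour and number. The upper 5 genes are those that rose at 42 µM, with a median of 0.01 on 28 µM replicate 4 and of 1.23 to 1.92 on the other treated arrays, and grey marks the spot left out.

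The 5 risen genes were compared on each array to see how alike their values ran. Every 42 µM array lay above every DMSO array for 5 of the 10 genes, the same 5 that passed the test on these arrays, and for 5.94% of all gene names. Since both read the same arrays, nothing is added by this count. At 28 µM without replicate 4 this held for 6 of the 10 genes, *RHEB* being the addition, and for 7.46% of all gene names. Over the 12 arrays, each probe centred on its DMSO mean, *RRAGC* and *EIF4EBP1* differed least (root mean square difference 0.23 on the log2 scale) and *DDIT4* and *EIF4EBP1* most (1.15). The highest array lay 3.34 above the DMSO mean for *DDIT4* and 1.58 above it for *EIF4EBP1*, both on 42 µM replicate 2.

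Arrays lay on 5 slides, and some slides held both treated and DMSO arrays. Within the 3 slides that held 42 µM and DMSO arrays, the log2 difference of *DDIT4* was 3.34, 3.01 and 2.38. That of *SESN2* was 2.12, 2.10 and 1.58, and that of *EIF4EBP1* was 1.28, 1.61 and 1.16. *RRAGC* (first probe) differed by 1.82, 1.55 and 1.23, and *RRAGD* by 1.77, 1.62 and 0.55. The 5 genes were thus higher at 42 µM than in DMSO within each of these slides. With slide as a fixed block, however, none of the 5 passed at 42 µM (smallest limma adjusted p = 0.0600), and 1 gene of 24151 did.

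The higher dose was also compared with the lower. None of the 10 genes differed between 42 and 28 µM, either after adjustment or at an unadjusted p below 0.05, and no gene on the array passed (0%), with 271 higher and 354 lower of 24151 at an unadjusted p below 0.05 (whatever the fold change). With all arrays, the log2 difference of 42 from 28 µM was 0.68 for *DDIT4* (95% interval -0.49 to 1.86) and 0.48 for *SESN2* (-0.19 to 1.15). Without 28 µM replicate 4 these were 0.03 (-0.75 to 0.81) and 0.08 (-0.30 to 0.46). For *DDIT4* the wider of these intervals still holds differences of more than 1 on the log2 scale, so equal responses at the 2 doses were not shown.

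The rest of the pathway was read from a list of 58 other genes, of which 55 had a probe under the searched names and 54 were tested. At 42 µM, 3 of the 54 rose and none fell, and the median log2 fold change of the 54 was 0.12. Over all gene names, 1.58% passed in the upward and 1.42% in the downward direction, with a median of -0.02. The 3 were *FLCN*, its partner *FNIP1* and the initiation factor *EIF4B*. The array holds 3, 2 and 6 probes for them in turn, and only the brightest of each was read here. Folliculin (FLCN) and FNIP1 form a complex that acts on the nucleotide state of RagC and RagD, the Rag proteins whose mRNAs also rose. *FLCN* (hg19 chr17:17124668-17124727) gave 9.07, 8.87, 8.64 and 8.58 in DMSO, 9.94, 9.91, 9.83 and 8.79 at 28 µM, and 10.24, 10.03, 9.70 and 9.87 at 42 µM. Replicate 4 at 28 µM again lay in the DMSO range, and the log2 fold change at 42 µM was 1.17 (SE 0.23, limma adjusted p = 0.0192).

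*FNIP1* ranged from 6.94 to 7.64 in DMSO, from 7.15 to 8.30 at 28 µM and from 8.03 to 8.87 at 42 µM. The 42 µM arrays lay above all DMSO arrays, and the log2 fold change was 1.09 (SE 0.25, limma adjusted p = 0.0357). *EIF4B*, which aids the helicase at the mRNA cap and is phosphorylated by S6 kinase, ranged from 13.21 to 13.37 in DMSO and from 13.80 to 14.28 at 42 µM. These ranges did not overlap, and the log2 fold change was 0.72 (SE 0.17, limma adjusted p = 0.0360). At 28 µM none of the 54 passed (median 0.10). Without replicate 4, *FLCN* and *EIF4B* did, beside 1.45% of all gene names in the upward direction.

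**Figure D4:**
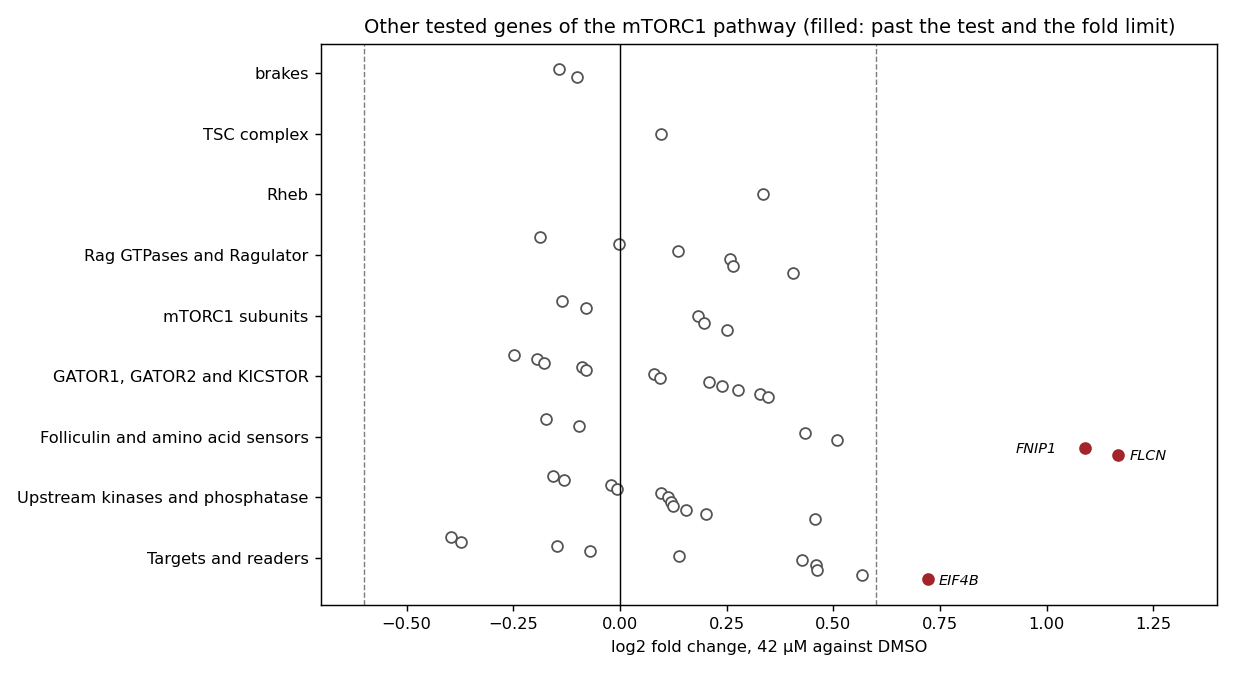
Log2 fold change at 42 µM against DMSO (x axis) of the 54 other tested pathway genes, 1 point a gene, grouped by role (y axis; points are spread vertically within a role only to separate them). Filled points passed the test and the limit of 0.6 (dashed lines), and these are *FNIP1*, *FLCN* and *EIF4B*.

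By role, the risen genes outside the 10 lay in the folliculin and amino acid sensor group (2 of 6 tested) and among targets and readers (1 of 10). The share over all gene names was 1.58%. None passed among the 5 mTORC1 subunits, the 12 genes of GATOR1, GATOR2 and KICSTOR, the 11 upstream kinases and phosphatase, or the 6 other Rag and Ragulator genes. *MTOR*, the kinase, had a log2 fold change of 0.18 (95% interval -0.13 to 0.50) at 42 µM, and *RPTOR*, its scaffold, of -0.14 (-0.37 to 0.10). Relatives of the members, picked after their values were seen, also did not pass at 42 µM. *SESN1*, a sestrin known as a p53 target, had -0.10 (-0.39 to 0.19), *DDIT4L*, the paralogue of *DDIT4*, had -0.14 (-0.40 to 0.11), *RRAGA*, which encodes a partner of RagC and RagD, had -0.19 (-0.42 to 0.04), and *EIF4EBP2* had -0.07 (-0.35 to 0.21). *FNIP2*, the relative of *FNIP1*, had 0.43 (0.18 to 0.69, limma adjusted p = 0.0681).

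The genes that ran most like *DDIT4* and *SESN2* were sought among 24100 others over all 12 arrays, by the root mean square difference after centring on the DMSO mean. Nearest to *DDIT4* were *NUPR1*, a stress-induced chromatin protein (0.24), *AREG*, an EGF receptor ligand (0.34), and *CHAC1*, an enzyme that degrades glutathione (0.39). Their log2 fold changes at 42 µM were 2.61, 2.46 and 3.01, against 2.65 for *DDIT4*. Nearest to *SESN2* were *VLDLR*, a lipoprotein receptor (0.16), *FABP3*, a fatty acid carrier (0.20), and the transcript ENST00000526512 (0.21). Their log2 fold changes at 42 µM were 1.67, 1.77 and 1.86, against 1.81 for *SESN2*. The likeness is over arrays that share the 28 µM replicate 4 pattern and is a description only.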

How the data were processed

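Total RNA of 12 HuH-7 cultures was labelled with Cy3 and hybridised to Agilent 4x44K whole human genome arrays, 1 array a culture. Per the file headers and the submitters' processing notes, the authors extracted spot signals with Feature Extraction 10.7.3.1, and the methods give another version of it. The deposited scanner intensity values (mean signal, median background) are linear and not normalized between arrays. The deposited table of log2 values holds the authors' processed values of the same arrays, and it was used only as an alternative, from which values here differed by -0.34 to 0.09 over the 16 probes. Detection flags, gene names and probe positions (hg19) came with the scanner files.

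As in the methods, background was corrected by the Edwards method, arrays were quantile normalized and taken to log2 (limma 3.58.1, R 4.3.3), and spots of a probe were averaged. Control spots (1639 an array) and spots with outlier flags (79 to 119 gene spots an array) were left out. A probe was dropped when at least 3 of 4 arrays were not well above background in every group, which left 33476 of 41000. limma was fitted to 3 groups, two-sided, with Benjamini-Hochberg adjustment over all 33476 probes. The brightest probe stood for a gene in counts. The number of arrays limits the precision. Simulated data had independent normal noise and no deviating array (33410 probes, 200 changed by 1.5 on the log2 scale). There the fit recovered 95.5% at 28 µM and 96% at 42 µM, with 10 and 14 false calls. This checks the code and not the power in the real arrays, where no gene passed at 28 µM. The members and gene lists were chosen with earlier results of these data known. All members were named, as were other pathway genes that passed, and the 3 genes most like *DDIT4* and *SESN2*. Alternatives were other background corrections, scalings and filters, slide and replicate blocks, array weights and leaving out each array.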

Additional observations from a re-analysis of the deposited data

Results flagged for a closer look

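In groups of 4 arrays, a value was singled out when its gap to the nearest array was a large part of the whole range of the group by Dixon's limit. Of 44 groups of a probe, 7 held such a value, where chance gives about 1 in 20. On 28 µM replicate 4, *SESN2* was at 7.83 (other arrays 9.32 to 9.57), the first *RRAGC* probe at 10.07 (11.42 to 11.69) and *RHEB* at 10.95 (11.91 to 12.07), all on the log2 scale and all lower than the rest of the group. In DMSO replicate 4 the second *RRAGC* probe was at 9.68 (9.91 to 9.95). On 28 µM replicate 3, *SESN3* (second probe) was at 6.92 (7.16 to 7.20) and the brightest *RPS6KB1* probe at 9.52 (9.89 to 9.96). On 42 µM replicate 1 the second *RPS6KB1* probe was at 10.03, whereas the other arrays were all at 9.49. What set these arrays apart was not tested.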

How the results depend on the processing

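No fold change of the 10 genes turned from called higher to lower, or the reverse, under 25 alternatives in 3 comparisons. In all, 709 values kept their side of the threshold, 36 lost and 5 gained a call. At 42 µM the log2 fold change ranged from 2.42 to 3.01 for *DDIT4*, 1.68 to 2.12 for *SESN2*, 1.25 to 1.47 for *RRAGC*, 1.26 to 1.74 for *RRAGD* and 1.05 to 1.33 for *EIF4EBP1*. The number of the 10 genes called was 5 in the analysis reported. It was 2 with the processed signal and quantile normalization (*SESN2* and *EIF4EBP1*), 3 with the processed signal scaled to the 75th percentile (*DDIT4* too) and 0 with slide as a fixed block, which leaves 5 residual degrees of freedom. Leaving out 1 array gave 0 to 5 calls at 42 µM, with 0 without DMSO replicate 2 or without 42 µM replicate 2, where no gene of 24151 was called either, although all 5 kept an unadjusted p below 0.05. It was 2 without DMSO replicate 1, DMSO replicate 4 or 42 µM replicate 1. At 28 µM leaving out 1 array gave 0 to 5 calls, with 5 only without 28 µM replicate 4. With the authors' values *RHEB* was at -0.45 at 42 µM, since its left-out spot is included there.

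Same-numbered arrays correlated at -0.46 to 0.62, and 5 of 12 matched their own number best, so the shared numbers were not taken as pairs. With the replicate block, 0, 5 and 0 members were called at 28 µM, at 42 µM and between the doses, and 1108 genes were called at 42 µM in place of 381 higher and 343 lower. Over all genes at 42 µM, counts were 363 and 490 with the processed signals and 0 to 991 without 1 array, against 906 with slide as a random block.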
